A study of Mus musculus with 20 samples.

Results

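The genes described here encode the proteins of the mitochondrial ribosome, and they were chosen by name. They are the genes whose symbol starts with Mrpl or Mrps and a number, without pseudogene copies marked -ps, and whose normalised counts averaged 10 or more in 1 or more of the 5 day tables. Of 80 names that matched, 4 were pseudogene copies and 1, Mrpl53, was under the minimum with 0 to 2 reads per library. The remaining 75 genes, 46 named Mrpl and 29 named Mrps, are the members, out of 16497 genes tested and 33581 in each table. All 75 were over the minimum in all 5 tables. Structures of the mammalian mitoribosome place 48 of them in the large subunit, Mrps18a and Mrps30 included, and 26 in the small subunit. Mrps36 is a subunit of the 2-oxoglutarate dehydrogenase complex and was kept because the name rule takes it.

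Mitochondria hold their own ribosomes, which translate the few messages encoded by mitochondrial DNA, all of them core subunits of the respiratory chain and the ATP synthase. The ribosomal RNA comes from mitochondrial DNA, whereas every ribosomal protein is encoded in the nucleus, made in the cytosol and imported. Some of these proteins descend from bacterial ribosomal proteins and others were gained by mitochondria. Fat cell formation is accompanied by an increase in mitochondrial mass, and the nuclear genes involved are known targets of NRF1, GABP, YY1 and coactivators of the PGC-1 family.

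The libraries are from the mouse preadipocyte line 3T3-L1, whose cells fill with lipid after hormonal induction, here without routine addition of a thiazolidinedione. In Tcf7l2 knockdown cells a lentivirus expressed a short hairpin RNA that targets Tcf7l2, which encodes a DNA-binding effector of Wnt signalling. In scrambled cells it expressed a scrambled hairpin. Both are puromycin-selected mixed populations made from very early passage cells, and 1 hairpin was used per arm, so that an effect of the hairpin and loss of Tcf7l2 cannot be told apart in these libraries. The labels mention further hairpins, which were not analysed here. Each arm has 2 libraries from each of days 0, 2, 4, 6 and 8 after induction, which gives 10 groups and 20 libraries.

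Library totals ranged from 20153360 to 33973608 reads, and levels are given in RPM, a gene's recovered reads over the library's total on the usual per-megaread scale. Tcf7l2 had 12.2 to 23.4 RPM in the knockdown libraries and 38.5 to 59.0 RPM in the scrambled libraries. Whether the paired libraries of a group are separate cultures is not in the labels, and the p-values therefore reflect the spread between these libraries alone, possibly a technical one. All 8 fibroblast markers and all 12 adipocyte markers of the lists used were detected. Summed markers of other cells reached at most 27.8 RPM for macrophages, 35.8 for muscle, 1.77 for epithelium and 1.28 for endothelium, with Emr1, Myod1, Ckm and Epcam at 0 reads. The scrambled libraries numbered 2 of days 4, 6 and 8 stood apart from those numbered 1: the SD across genes of the difference within the pair was 0.453, 0.490 and 0.598 on the log2 scale, against 0.189 to 0.321 in the other groups. The summed level of the adipocyte markers in the libraries numbered 1 and 2 of day 8 was 1258 and 2246 RPM in knockdown cells and 3677 and 18820 RPM in scrambled cells. Most test results that rest on these scrambled libraries are also given in their absence, but some descriptive values are not. In bulk RNA, more cells of a type and more RNA per cell cannot be told apart.

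Because the nuclear factors above act on promoters, the promoter windows of the members were searched for 4 short words. Windows of 250 bases before to 50 bases after the start came from RefSeq (GRCm38.p6, not the mm9 build of the reads), and 66 members matched with 72 windows. The NRF1 core GCATGCGC was in 11.1% of the members' windows, 4.95% of the windows of all genes tested and 2.71% of all windows in the table. The ETS core CCGGAAGT, the word that GABP binds, was in 16.7% of the members' windows, 7.32% of those of genes tested and 3.89% of all. The YY1 core AAGATGGCG was in 11.1%, 2.71% and 1.40% in the same order, and the E-box CACGTG in 9.72%, 9.66% and 7.15%. Both strands were searched, and none of the words is contained in another. Among the windows of 19 members that were lower in knockdown cells on average (below), 0 held the NRF1 word, 2 the ETS word, 2 the YY1 word and 1 the E-box. These matches are descriptions and not binding sites. The windows of 4 members that recur in the results are shown 5′ to 3′ on the strand of the gene, with the matched word in capitals. Mrpl51 (chr6:125191950-125192249, plus strand) holds the ETS word, Mrps18a (chr17:46110754-46111053, plus strand) the YY1 word and Mrpl17 (chr7:105811038-105811337, minus strand) the NRF1 word, while Mrpl41 (chr2:24975049-24975348, minus strand) holds none of the 4.
Mrpl51: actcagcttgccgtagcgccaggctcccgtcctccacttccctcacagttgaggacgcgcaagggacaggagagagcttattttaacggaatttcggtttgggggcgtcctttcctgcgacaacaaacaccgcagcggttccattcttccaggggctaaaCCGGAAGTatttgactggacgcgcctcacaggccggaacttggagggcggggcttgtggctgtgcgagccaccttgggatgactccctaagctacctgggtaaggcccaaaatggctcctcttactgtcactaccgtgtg
Mrps18a: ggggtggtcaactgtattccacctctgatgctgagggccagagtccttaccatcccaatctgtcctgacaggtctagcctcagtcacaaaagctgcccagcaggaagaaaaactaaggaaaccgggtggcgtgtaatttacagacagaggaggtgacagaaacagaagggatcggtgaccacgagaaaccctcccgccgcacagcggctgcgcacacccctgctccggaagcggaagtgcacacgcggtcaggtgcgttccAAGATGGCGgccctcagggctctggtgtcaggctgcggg
Mrpl17: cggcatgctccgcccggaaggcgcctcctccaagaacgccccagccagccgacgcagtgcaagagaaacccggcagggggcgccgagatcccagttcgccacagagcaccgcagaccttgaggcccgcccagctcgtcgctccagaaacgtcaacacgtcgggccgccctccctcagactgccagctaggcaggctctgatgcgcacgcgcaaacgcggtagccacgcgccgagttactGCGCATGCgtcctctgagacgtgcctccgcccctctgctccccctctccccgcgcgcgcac
Mrpl41: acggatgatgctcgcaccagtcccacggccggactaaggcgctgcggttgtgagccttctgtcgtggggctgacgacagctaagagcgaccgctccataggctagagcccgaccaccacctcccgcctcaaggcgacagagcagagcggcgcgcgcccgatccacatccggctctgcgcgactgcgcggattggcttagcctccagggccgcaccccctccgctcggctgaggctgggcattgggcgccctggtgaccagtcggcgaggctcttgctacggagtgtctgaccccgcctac

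The members were moderately expressed and spanned a wide range of levels. Per kilobase of transcript, a length that was available for 74 of the 75, the median member had 19.4 RPM per kb over the 20 libraries, with quartiles of 11.9 and 28.3. Mrps6, the counterpart of bacterial S6, stood at the top with 166 RPM per kb, followed by Mrpl30 (59.1), Mrpl52 (56.5), Mrps18a (53.6) and Mrps21 (50.8). The lowest were Mrpl48 (3.22), Mrpl47 (3.69), Mrpl19 (4.14), Mrps25 (5.14) and Mrpl1 (5.44). The step from Mrps6 to Mrpl30 was larger than any other among these neighbours. The summed RPM of the large-subunit genes was 1.66 to 1.96 times that of the small-subunit genes in all 20 libraries.

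Together the 75 members made up less of the RNA in knockdown cells than in scrambled cells after induction, and about the same before it. At day 0 their summed level was 2014.8 and 1758.9 RPM in knockdown cells, against 1939.2 and 1689.7 RPM in scrambled cells. At day 2 it was 2006.5 and 2026.5 RPM in knockdown cells, against 2268.1 and 2426.2 RPM in scrambled cells. The groups overlapped at day 0 and were apart at day 2. At day 4 the sums were 1964.9 and 2072.7 RPM in knockdown cells and 2232.3 and 2860.0 RPM in scrambled cells. At day 6 they were 2077.3 and 2141.5 RPM in knockdown cells and 2456.6 and 3045.2 RPM in scrambled cells. At day 8 they were 1956.1 and 2052.1 RPM in knockdown cells and 2064.4 and 3085.5 RPM in scrambled cells. No knockdown library reached a scrambled one at days 2 to 8, but at day 8 the scrambled library numbered 1 lay only just above both knockdown libraries, and the spread within scrambled cells was wide from day 4 on. The knockdown mean was 104%, 85.9%, 79.3%, 76.7% and 77.8% of the scrambled mean at days 0, 2, 4, 6 and 8. The percentages of days 4, 6 and 8 are not given without the scrambled libraries numbered 2.

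**Figure D1:**
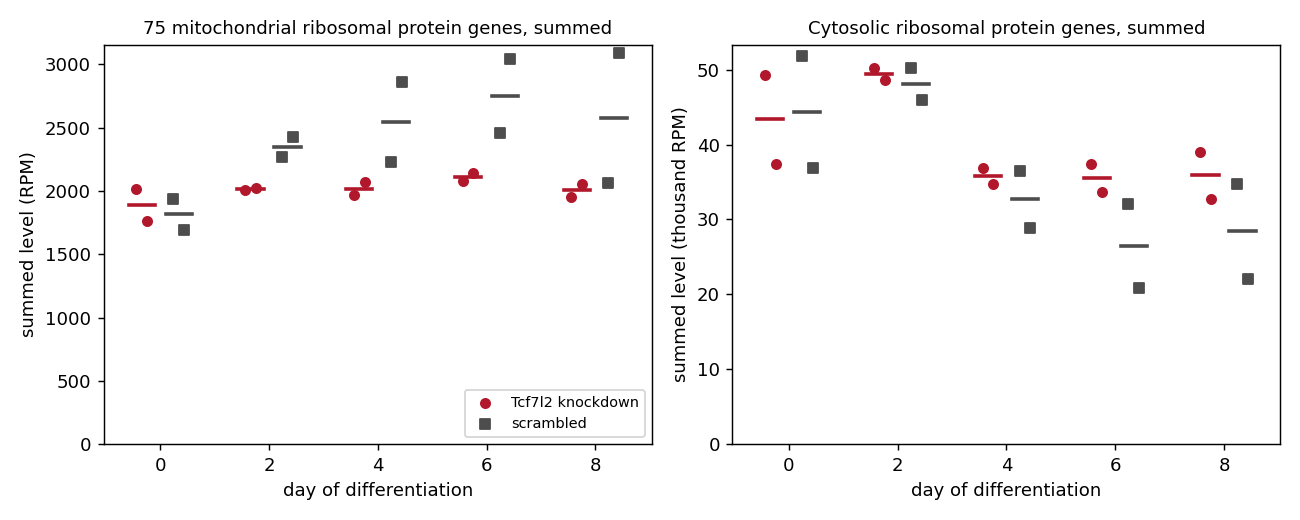
Summed level of the 75 mitochondrial ribosomal protein genes (left, RPM) and of 77 genes named as cytosolic ribosomal proteins (right, RPM divided by 1000) by day of differentiation. Circles are knockdown libraries, squares scrambled libraries, and lines the means of the 2 libraries. The knockdown sums of the mitochondrial set stay between 1758.9 and 2141.5 RPM, while the scrambled sums reach 3085.5 RPM.

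Over the 5 days together, 22 of the 75 members were lower in knockdown cells and 0 were higher. The test was limma on the deposited log2 values of 10 libraries per arm, two-sided and with day as a factor, with Benjamini-Hochberg adjustment over all 16497 genes and calls at 0.05. It took libraries of different days as independent, although same-numbered libraries of an arm partly deviated together across days (below). Of all genes tested, 13.2% were called lower, against 29.3% of the members. The median difference of the members was -0.21 on the log2 scale, that of all genes tested -0.0028, and 68 of the 75 members lay below 0. At an unadjusted p under 0.05 by limma, 36 members were lower and 0 higher. This count and the later ones at an unadjusted p are given without the share of all genes. Called by limma voom on recovered reads were 24 lower and 0 higher, where 14.4% of all genes were lower. With the replicate number as a block, 37 members were called lower, where 18.8% of all genes were. Without the scrambled libraries numbered 2 of days 4, 6 and 8, 12 members were called, where 10.5% of all genes were, and the median was -0.043. Leaving out the libraries numbered 2 of those days in both arms gave 11 members, where 8.92% of all genes were called, and a median of -0.078. Leaving out knockdown library 1 of day 6 alone gave 14, where 8.93% of all genes were called lower.

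**Figure D2:**
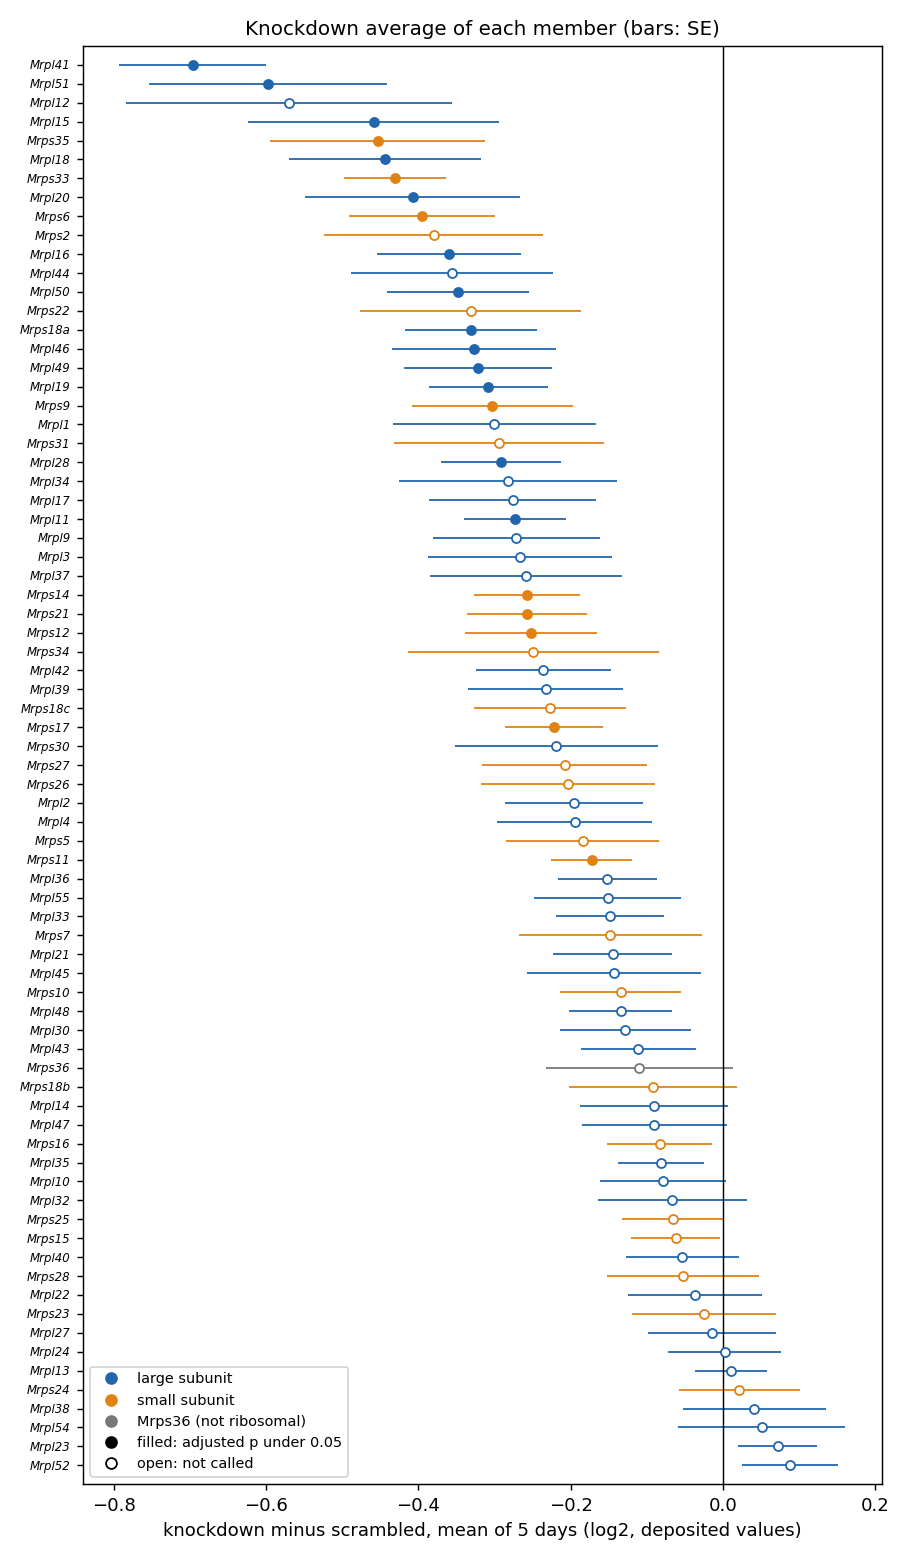
Difference between knockdown and scrambled cells averaged over the 5 days for each of the 75 members (log2 of deposited values, bars are SE), ordered by size and coloured by subunit. Filled points, adjusted p under 0.05 by limma, number 22 and all lie left of 0, while 7 open points lie right of it.

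The members that moved were spread over both subunits. In the large subunit 13 of 48 genes were lower, with a median of -0.21, and in the small subunit 9 of 26 were, with a median of -0.22. A list of large-subunit proteins with a bacterial counterpart gave 7 of 30. A list of the other large-subunit proteins, which also holds Mrp63 and Ict1, gave 6 of 20. That list includes Mrps18a, a relative of bacterial S18 that was called lower. In the small subunit the counts were 7 of 17 with a bacterial counterpart and 2 of 9 without one. By region of the large subunit, 1 of 4 stalk genes, 2 of 6 genes of the central protuberance and 0 of 6 genes around the exit tunnel were lower. At the exit tunnel 2 genes were lower at an unadjusted p under 0.05 by limma, and limma voom on recovered reads called 1. Blocking by replicate number gave counts of 23 of 48 in the large and 14 of 26 in the small subunit, and leaving out the late scrambled libraries numbered 2 gave 9 and 3. No difference between these classes was tested.

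Mrpl41 (ENSMUSG00000036850.3), a large-subunit protein without a bacterial counterpart, had the smallest adjusted p of the family. In knockdown cells its level was 7.57 and 5.96 RPM at day 0, 8.62 and 7.91 at day 2, 9.26 and 9.34 at day 4, 8.78 and 8.67 at day 6, and 8.54 and 9.09 at day 8. In scrambled cells it was 11.4 and 9.0 RPM at day 0, 15.6 and 17.3 at day 2, 12.6 and 19.4 at day 4, 18.3 and 21.3 at day 6, and 13.4 and 20.8 at day 8. Both knockdown libraries were below both scrambled libraries at every day, day 0 included. Its average difference was -0.70 on the log2 scale (SE 0.096, adjusted p = 7.51e-05 by limma), and leaving out any 1 library gave -0.74 to -0.64.

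Mrpl51, another large-subunit protein without a bacterial counterpart, differed from Mrpl41 in that the arms were alike at day 0. Knockdown cells had 42.8 and 30.6 RPM at day 0, 34.8 and 31.7 at day 2, 38.4 and 44.7 at day 4, 47.7 and 50.2 at day 6, and 38.6 and 39.8 at day 8. Scrambled cells had 40.4 and 31.8 RPM at day 0, 47.6 and 49.1 at day 2, 51.6 and 85.0 at day 4, 69.8 and 114 at day 6, and 56.4 and 112 at day 8. The arms overlapped at day 0 only, and the scrambled libraries numbered 2 were the highest of their days from day 4 on. The average difference was -0.60 (SE 0.156, adjusted p = 0.0115 by limma). The knockdown mean was 46.6% of the scrambled mean at day 8.

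Mrpl11, a protein of the stalk base where translation factors dock, had 17.4, 20.3 and 22.7 RPM (lowest, median and highest of 10) in knockdown libraries and 20.05, 24.9 and 32.4 RPM in scrambled libraries. Its average difference was -0.27 (SE 0.067, adjusted p = 0.00815 by limma). Mrpl16, the counterpart of bacterial L16, had 15.6, 19.9 and 23.2 RPM in knockdown libraries against 18.8, 24.1 and 36.9 RPM in scrambled libraries. It differed by -0.36 (SE 0.095, adjusted p = 0.0119 by limma), and this call ended when the late libraries numbered 2 were left out in both arms (-0.18, adjusted p = 0.0566). Mrpl19, the counterpart of bacterial L19, had 15.99, 17.8 and 20.7 RPM in knockdown libraries against 19.4, 21.8 and 29.6 RPM in scrambled libraries. It differed by -0.31 (SE 0.078, adjusted p = 0.00936 by limma). Both knockdown libraries were below both scrambled libraries at days 2, 4, 6 and 8 for each of these 3 genes, and at day 0 for Mrpl19 alone.

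Mammals have 3 relatives of bacterial S18, and their values differed. Mrps18a, which sits in the large subunit despite its name, had 36.0, 40.6 and 49.9 RPM in knockdown libraries against 38.6, 50.0 and 74.4 RPM in scrambled libraries (average -0.33, SE 0.087, adjusted p = 0.0115 by limma). Mrps18b and Mrps18c, which sit in the small subunit, did not pass, with average differences of -0.092 and -0.23 and adjusted p of 0.566 and 0.105 by limma. Mrps18c passed without knockdown library 1 of day 0 (adjusted p = 0.0376 by limma) or scrambled library 2 of day 0 (0.0446). The difference between the relatives was not tested. Mrps30, the other large-subunit protein with a small-subunit name, gave -0.22 (adjusted p = 0.235 by limma), and Mrps36 gave -0.11 (adjusted p = 0.535 by limma). Without the late scrambled libraries numbered 2, Mrps18b, Mrps30 and Mrps36 lay above 0 (0.083, 0.018 and 0.096).

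Mrps33 (ENSMUSG00000029918.8), a small-subunit protein without a bacterial counterpart, was lower in the knockdown library of each of the 10 same-numbered pairs. Knockdown cells had 30.0 and 21.4 RPM at day 0, 27.1 and 24.3 at day 2, 27.5 and 21.6 at day 4, 29.2 and 23.5 at day 6, and 28.2 and 22.5 at day 8. Scrambled cells had 39.1 and 28.8 RPM at day 0, 37.2 and 33.9 at day 2, 34.5 and 33.2 at day 4, 39.0 and 34.0 at day 6, and 37.6 and 34.6 at day 8. Its scrambled level was the most even of the family over time, with the highest daily mean 1.08 times the lowest. The average difference was -0.43 (SE 0.067, adjusted p = 0.000235 by limma).

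Mrps6 (ENSMUSG00000039680.8), the most abundant member per length, was lower too. Knockdown cells had 108.9 and 74.4 RPM at day 0, 122 and 107 at day 2, 149.9 and 122 at day 4, 160.8 and 119 at day 6, and 136 and 120.2 at day 8. Scrambled cells had 142 and 122 RPM at day 0, 176 and 178 at day 2, 177 and 118 at day 4, 198 and 141 at day 6, and 161 and 176 at day 8. The arms were apart at days 0, 2 and 8 and overlapped at days 4 and 6. The average difference was -0.40 (SE 0.096, adjusted p = 0.00734 by limma). Of its exon bases, 19.9% overlap another annotated gene, so its level is less certain than its depth.

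Of the 22 members called lower on average, 9 were called in every one of the 29 alternative fits, those without the late libraries numbered 2 included. These are Mrpl11, Mrpl19, Mrpl28, Mrpl41, Mrpl50, Mrpl51, Mrps6, Mrps18a and Mrps33, named after their values were seen. The share of all genes called in all 29 fits is not given, so the count shows dependence on the fit only. In RPM, 9 of the 75 members were lower in the knockdown library of all 10 same-numbered pairs, which is 12% of members and was met by 6.33% of all genes tested. Those 9 are Mrpl11, Mrpl19, Mrpl28, Mrpl41, Mrpl46, Mrpl50, Mrps11, Mrps18a and Mrps33. The 7 members above 0 on average were Mrpl13, Mrpl23, Mrpl24, Mrpl38, Mrpl52, Mrpl54 and Mrps24, and their differences, 0.0020 to 0.088, did not pass.

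**Figure D3:**
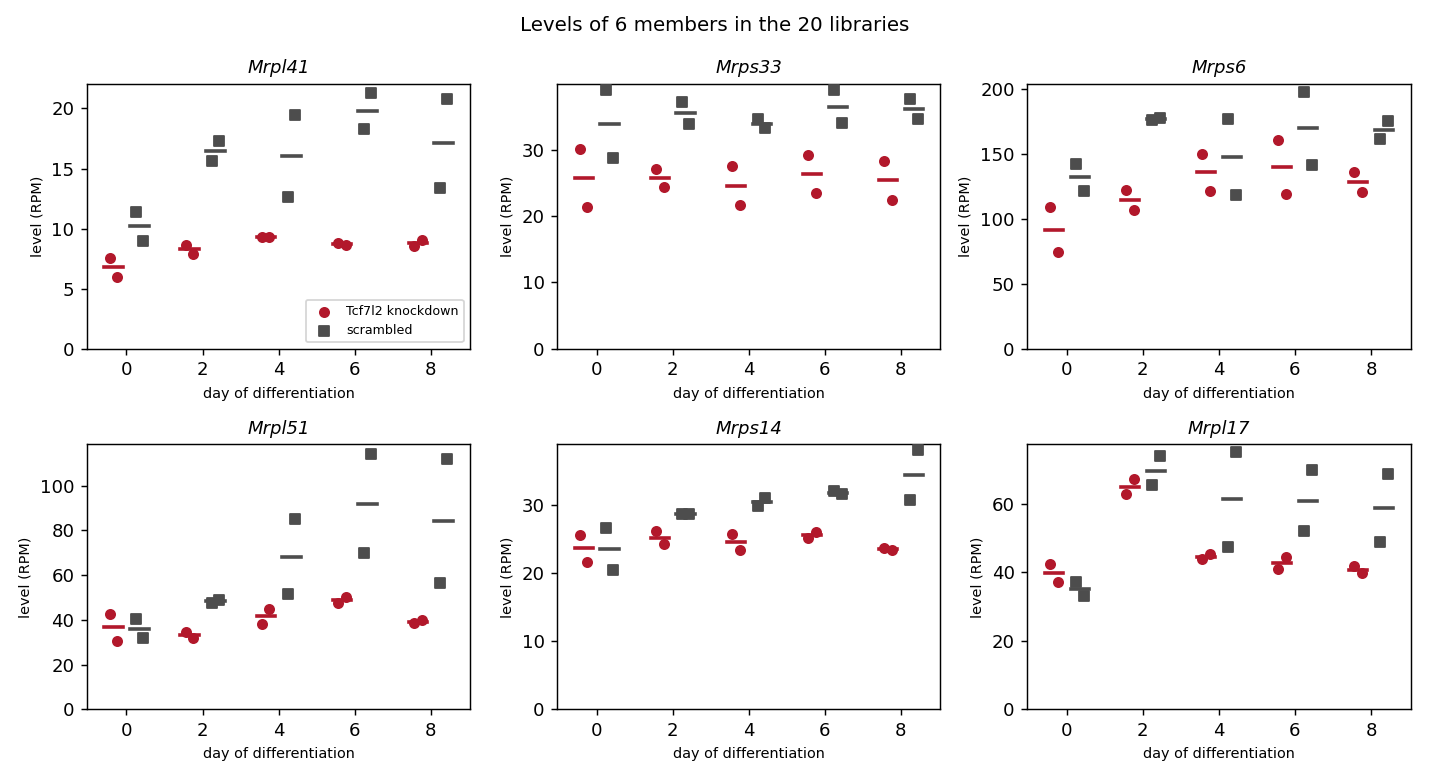
Level in RPM (vertical axes, from 0) of Mrpl41, Mrps33, Mrps6, Mrpl51, Mrps14 and Mrpl17 in the 20 libraries by day of differentiation, with knockdown libraries as circles and scrambled libraries as squares, and lines for the means of 2. Mrpl41 is lower in knockdown cells at every day, Mrpl51 and Mrps14 after day 0, and Mrpl17 has its highest mean at day 2 in both arms.

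Day by day, most members had a positive difference at day 0 and a negative one at each later day, and few single values passed the test. At day 0, 53 of the 75 members were above 0 and 22 below, with a median of 0.059 on the log2 scale. Among those below, Mrpl41 was at 66.5%, Mrps6 at 69.6% and Mrps33 at 75.8% of the scrambled mean. At days 2, 4, 6 and 8 the median was -0.13, -0.28, -0.36 and -0.34, while the median of all genes tested stayed between -0.0098 and 0.00074. The members below 0 numbered 62, 72, 71 and 69 at days 2, 4, 6 and 8. Single members mostly did not pass at single days. By limma, 0 members were called at days 0, 2 and 4, where 3, 2 and 2 had an unadjusted p under 0.05, and voom on recovered reads called 0 as well.

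**Figure D4:**
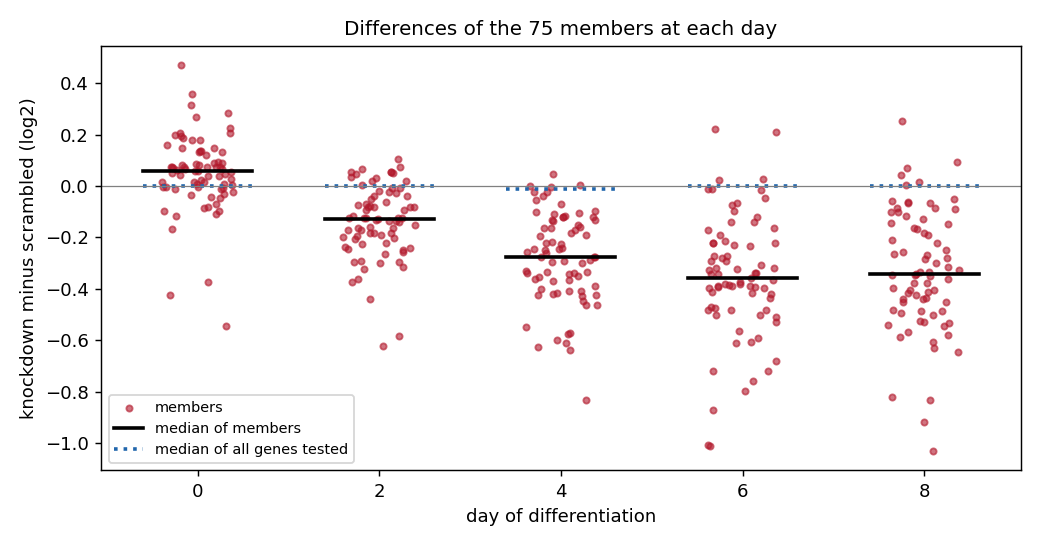
Knockdown minus scrambled difference of the 75 members at each day (points, log2 of deposited values, spread sideways at random), with the median of members (black) and of all genes tested (dotted blue). The members' median is 0.059 at day 0 and -0.36 at day 6, whereas the median of all genes stays near 0.

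At day 6 limma called 1 member lower, Mrpl41, where 1.44% of all genes were called lower. Its difference was -1.01 (adjusted p = 0.0198 by limma), and 17 members had an unadjusted p under 0.05, a count given without the share of all genes. At day 8 it called 2 lower, Mrpl41 and Mrps14, where 2.35% of all genes were. With the replicate block the counts were 3 at day 6 and 5 at day 8. Mrps14, the counterpart of bacterial S14, had 23.6 and 23.4 RPM in knockdown cells at day 8, against 30.7 and 38.0 RPM in scrambled cells. Its difference at day 8 was -0.54 (adjusted p = 0.0389 by limma), and that of Mrpl41 was -0.83 (adjusted p = 0.0383 by limma). Without the late scrambled libraries numbered 2, both day 8 calls ended (adjusted p = 0.258 for Mrps14 and 0.0885 for Mrpl41), the count at day 8 was 0, and the median of the members at day 8 was 0.010. Voom on recovered reads gave 1 at day 6 and 0 at day 8. Counts from alternative fits in this paragraph are given without the share of all genes called in them. They show dependence on the libraries and the fit only. The day 6 count was 0 without either knockdown library of day 6 or scrambled library 2 of day 6, 7 without scrambled library 1 of day 6, and 4 without either scrambled library of day 8. The day 8 count was 36 without scrambled library 1 of day 8, 1 without either scrambled library of day 0, and 0 without any 1 of 11 others, which were scrambled library 2 of day 8, both scrambled libraries of day 2 and the knockdown libraries of days 2, 4, 6 and 8.

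Counting separation in place of a test, both knockdown libraries were below both scrambled libraries in RPM for 3 of 75 members at day 0, where 14.6% of all genes were. The reverse, both knockdown libraries above, held for 19 members (25.3%) at day 0 and for 18.9% of all genes. The count below was 43 (57.3%) at day 2 against 24.3% of all genes, 41 (54.7%) at day 4 against 21.7%, 45 (60.0%) at day 6 against 25.2%, and 28 (37.3%) at day 8 against 21.4%. For 24 members (32.0%) it held at days 4, 6 and 8 together, as it did for 10.1% of all genes, and for 20 members (26.7%) at days 2, 4, 6 and 8, against 6.58% of all genes. Within same-numbered pairs at day 8, 47 members (62.7%) were lower in knockdown library 1 than in scrambled library 1, against 53.3% of all genes. Their median log2 ratio was -0.062, that of all genes -0.023. In the pair numbered 2 there were 71 (94.7%, against 41.3% of all genes), with medians of -0.53 and 0.13. At day 2, where the scrambled libraries were close to each other, the pairs gave 62 (82.7%, against 55.1%) and 66 members (88.0%, against 50.6%). The members' medians there were -0.14 and -0.23, those of all genes -0.031 and -0.0049.

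Over time, most members lay higher at day 2 than at day 0 in both arms, but the counts called were near or under the share of all genes. The difference between the arms over this step was not tested. These contrasts used limma voom on recovered reads over all 20 libraries. In scrambled cells 13 of 75 members were called higher and 0 lower, where 13.2% of all genes tested were called higher, so the count itself was near the background. The median change was 0.54 against 0.076 over all genes, and 70 members lay above 0. In knockdown cells 2 members were called higher over the same step, where 7.18% of all genes were, with a median of 0.23 and 66 members above 0. With the replicate block the counts were 30 in scrambled and 6 in knockdown cells. For these counts and those that follow, the share of all genes called in the same fit is not given. The scrambled count depended on single libraries: it was 0 without scrambled library 2 of day 2, 2 without scrambled library 2 of day 0, 6 without scrambled library 1 of day 2, 7 without scrambled library 1 of day 0, and 26 without either scrambled library of day 8. The knockdown count was 0 without knockdown library 2 of day 0 or either knockdown library of day 2, 5 without either scrambled library of day 8, and 1 without any 1 of 9 other libraries.

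The members called in both arms, named after their values were seen, were Mrpl17, which lies at the exit tunnel, and Mrpl49. Mrpl17 had 62.8 and 67.1 RPM in knockdown cells at day 2, against 42.4 and 37.2 at day 0, a log2 change of 0.88 (adjusted p = 0.0277 by limma voom). In scrambled cells it had 65.3 and 73.9 RPM at day 2, against 37.3 and 33.1 at day 0, a change of 1.13 (adjusted p = 0.00536). At day 8 it had 41.9 and 39.7 RPM in knockdown cells and 48.8 and 68.7 RPM in scrambled cells, so that its highest mean was at day 2 in both arms. Mrpl49 had 54.0 and 51.9 RPM in knockdown cells at day 2, against 40.3 and 30.0 at day 0, a change of 0.78 (adjusted p = 0.0393 by limma voom). In scrambled cells Mrpl49 changed by 1.02 (adjusted p = 0.00715 by limma voom).

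In the steps from day 2 to 4, 4 to 6 and 6 to 8, limma voom called 0 members in either arm, with medians between -0.090 and 0.062 in scrambled cells and between -0.079 and 0.0054 in knockdown cells. At an unadjusted p under 0.05, 2 members were lower in knockdown cells from day 2 to 4 and 0 in the other steps, and log2 CPM with a trend called 0 throughout. By daily mean, 66 of 75 members were lowest at day 0 in scrambled cells, where 25.4% of all genes were, and 43 were highest at day 6 (18.9% of all genes). In knockdown cells 32 were lowest at day 0 (20.5% of all genes) and 34 highest at day 6 (17.7%). At day 2, 23 were lowest (41.4% of all genes) and 25 highest (24.3%) in knockdown cells. The highest daily mean of a member was 1.22 times the lowest in the median of knockdown cells and 1.59 times in scrambled cells. The scrambled means behind these counts and spans hold the late libraries numbered 2, and neither is given without them. Mrpl12, a stalk protein, had the widest course in scrambled cells, 4.12 times, and was 27.5 and 32.0 RPM in knockdown cells against 31.6 and 98.3 RPM in scrambled cells at day 8. From day 0 to day 6 it went from 22.2 to 59.8 RPM in the scrambled libraries numbered 1, and from 18.3 to 107 RPM in those numbered 2. It was not called on average (-0.57, SE 0.214, adjusted p = 0.0592 by limma).

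Between the ends of the course, 3 members were called higher in scrambled cells at day 8 than at day 0, where 5.65% of all genes were. They were Mrpl51 (log2 change 1.20, adjusted p = 0.0474 by limma voom), Mrpl38, a protein of the central protuberance (0.80, adjusted p = 0.0394), and Mrps14 (0.61, adjusted p = 0.0331). The median change of the members was 0.51, against -0.00021 over all genes. With the replicate block 28 members were called, and without the late scrambled libraries numbered 2 there were 0, with a median of 0.15. The count was 49 without scrambled library 1 of day 8 and 0 without scrambled library 2 of day 8 or either scrambled library of day 0. Without any 1 of the other libraries it was 1 to 7. These alternative counts, too, stand without the share of all genes called in the same fits. In knockdown cells 0 members were called by limma voom from day 0 to day 8, 2 had an unadjusted p under 0.05, log2 CPM with a trend called 0, the replicate block called 1, and the median was 0.088.

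The difference in that change between the arms was itself tested and passed for 0 of 75 members and 0 of 16497 genes by limma voom, and for 0 members by log2 CPM with a trend, with 2 members lower at an unadjusted p under 0.05. The median was -0.41 and 71 members were below 0. It was -0.59 for Mrps14 (unadjusted p = 0.0252), -0.69 for Mrpl38 (0.0450), -1.06 for Mrpl51, -0.71 for Mrpl17 and -0.89 for Mrpl18, all with an adjusted p of 0.846. Mrpl52 lay above 0 (0.25) also with any 1 library left out. Mrps6 (0.13), Mrpl23 (0.089) and Mrps16 (0.057) did not: all 3 were below 0 without knockdown library 2 of day 0 (-0.18, -0.095 and -0.26), Mrps6 and Mrps16 also without scrambled library 1 of day 8 (-0.0013 and -0.17), and Mrps16 without scrambled library 1 of day 0 (-0.088). Mrpl38 had the largest positive difference of the members at day 0 (0.47), with 37.5 and 37.3 RPM in knockdown cells against 27.1 and 23.8 RPM in scrambled cells, and it overlapped from day 2 on.

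Within each of the 10 groups, the library with more adipocyte marker RNA had the higher summed level of members. The 10 groups are not independent, since same-numbered libraries of both arms deviated together. At day 0 the marker sums were close, 141.8 and 135.3 RPM in knockdown cells and 300.1 and 272.1 RPM in scrambled cells. In knockdown cells at day 8, the marker sums were 1258 and 2246 RPM and the members' sums 1956.1 and 2052.1 RPM. At day 8 the scrambled library with 18820 RPM of adipocyte markers had 3085.5 RPM of members, and the one with 3677 RPM had 2064.4 RPM. At day 6 the corresponding values were 16770 and 3045.2 RPM in scrambled library 2 and 7178 and 2456.6 RPM in scrambled library 1, and at day 4 they were 8487 and 2860.0 RPM and 2340 and 2232.3 RPM. Between days the order did not hold: the scrambled libraries of day 2, with less marker RNA than libraries 1 of days 4 and 8, had higher sums of members. Knockdown libraries never exceeded 3296 RPM of adipocyte markers or 2141.5 RPM of members. The part that adipocyte share plays in the members' lower level was not tested, and at day 2, with marker sums of 371 and 396 RPM in knockdown cells and 712 and 948 RPM in scrambled cells, the members' sums were 2006.5 and 2026.5 RPM and 2268.1 and 2426.2 RPM.

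Genes that work with the mitoribosome were looked at through lists, in the same average test, in which 13.2% of all genes were called lower and 12.3% higher. Of 7 other proteins of the mitoribosome 1 was lower, Ptcd3, a pentatricopeptide protein of the small subunit (-0.64, adjusted p = 0.0127 by limma). Dap3 (-0.16), Gadd45gip1 (-0.13) and Mrp63 (-0.13) did not pass, and Mrp63 lay above 0 without the late scrambled libraries numbered 2 (0.032). Of 23 assembly factors 3 were lower and 1 higher, shares near or under those of all genes. Rpusd3, a pseudouridine synthase, gave -0.91 (adjusted p = 5.5e-05), Ftsj2, an rRNA methyltransferase now called Mrm2, -0.38 (0.0181), and Gtpbp10, a GTPase of large-subunit assembly, -0.26 (0.0229). Mrm1, another rRNA methyltransferase, was higher by 0.27 (adjusted p = 0.00339). The call of Gtpbp10 ended without the late scrambled libraries numbered 2 (-0.13, adjusted p = 0.0816 by limma), and without those of both arms that of Ftsj2 did too (-0.20, 0.0673).

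Translation factors gave 3 lower of 16 and 0 higher: Letm1, an inner-membrane protein (-0.65, adjusted p = 0.0204 by limma), the initiation factor Mtif3 (-0.27, 0.0301) and the elongation factor Gfm1 (-0.41, 0.0446). Mtif3 gave -0.13 (adjusted p = 0.0768 by limma) and Gfm1 -0.15 (0.178) without the late scrambled libraries numbered 2. The call of Mtif3 also ended on leaving out any 1 of 6 libraries and that of Gfm1 any 1 of 12, knockdown library 1 of day 6 giving the highest p of both (0.0638 and 0.0920). Among 17 mitochondrial aminoacyl-tRNA synthetases 7 were lower, among them Lars2 (-0.47, adjusted p = 0.00349), Aars2 (-0.32, 0.00458) and Iars2 (-0.51, 0.00689). Of 15 genes for upkeep and transcription of mitochondrial DNA 5 were lower, among them the transcription factor Tfb2m (-0.45, adjusted p = 0.00176), the single-stranded DNA binding protein Ssbp1 (-0.25, 0.00562), the tRNA-processing enzyme Elac2 (-0.36, 0.0336) and the polymerase Polg (-0.26, 0.0348). Elac2 gave -0.19 (adjusted p = 0.180 by limma) and Polg -0.13 (0.149) without the late scrambled libraries numbered 2, and each also lost its call on leaving out any 1 of 10 libraries. Ssbp1 lost its call without the late libraries numbered 2 of both arms (-0.21, adjusted p = 0.0595 by limma). The medians of these 5 lists were -0.13, -0.14, -0.16, -0.22 and -0.19, near that of the members.

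Of 11 known regulators of such genes 3 were lower and the median was 0.0014. These were the coactivators Ppargc1a (-0.61, adjusted p = 0.00579 by limma) and Ppargc1b (-1.10, 0.00862) and their nuclear receptor partner Esrra (-0.63, 0.0273), whereas Yy1 did not pass (-0.15, 0.111) except with the replicate block (adjusted p = 0.00972 by limma). The call of Esrra ended without knockdown library 1 of day 4, 6 or 8 or scrambled library 2 of day 4 (adjusted p by limma of at most 0.0585). Without the late scrambled libraries numbered 2, the counts lower were 1, 2, 1, 5, 2 and 3 for the 6 lists in this order, with medians between -0.096 and 0.032. The counts with the replicate block were 1, 7, 7, 8, 7 and 4, where 18.8% of all genes were lower.

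Genes for cytosolic ribosomal proteins were taken by name, Rpl or Rps and a number. This takes Rps19bp1 and Rpl7l1 and leaves out names that start with Rplp. Of the 77 tested, 8 were higher in knockdown cells (10.4%, against 12.3% of all genes) and 0 lower, so the count was not above the background. Their median was 0.18, with 71 above 0. With the replicate block 27 were higher and 1 lower, where 17.1% of all genes were higher. Rpl27 (0.23, adjusted p = 0.00481 by limma), Rpl34 (0.27, 0.0107), Rpl10 (0.25, 0.0131) and Rpl19 (0.38, 0.0137) led by adjusted p. Without the late scrambled libraries numbered 2, 3 were higher and the median was 0.032, and the call of Rpl19 ended (0.24, adjusted p = 0.0604 by limma). Without those of both arms 1 was higher, Rpl27 by its adjusted p of 0.0402, and Rpl10, Rpl19 and Rpl34 were not called (0.124, 0.0792 and 0.0511). Their summed level in scrambled libraries 1 and 2 was 51780 and 36830 RPM at day 0 and 34750 and 22100 RPM at day 8. In knockdown libraries it was 49260 and 37440 RPM at day 0 and 39040 and 32790 RPM at day 8. Their median log2 change between these days in scrambled cells was -0.60, whereas the members' median was 0.51. The lower scrambled sum of day 8 was in library 2, and this median is not given without that library. The 13 messages encoded by mitochondrial DNA had 0 reads in every library, so the products of the mitoribosome were not analysed here.

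**Figure D5:**
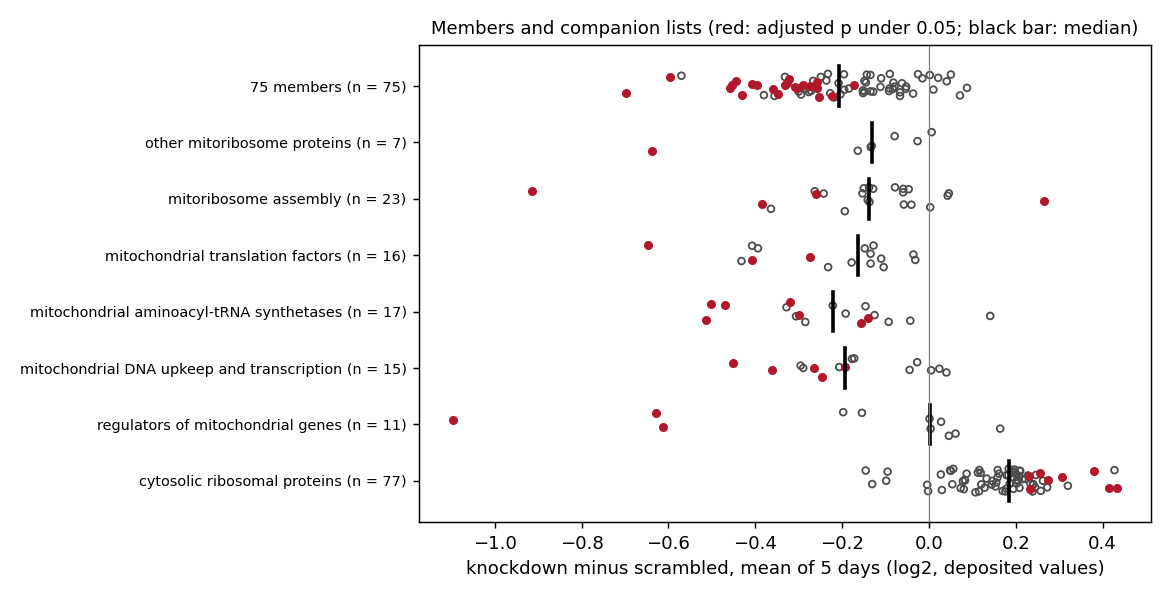
Knockdown minus scrambled difference averaged over the 5 days (log2 of deposited values) for the 75 members and for genes of 7 companion lists, with red points for adjusted p under 0.05 by limma, open points for the rest and black bars for medians. The medians of the members and of the first 5 lists lie between -0.22 and -0.13, and that of the cytosolic ribosomal proteins at 0.18.

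Some members share sequence with copies or neighbours, which limits their values. The copy Mrpl23-ps1 had 53.3% to 59.6% as many reads as Mrpl23, Mrpl48-ps 25.1% to 33.4% as many as Mrpl48, and Mrps36-ps1 and Mrps36-ps2 50.0% to 62.7% and 26.8% to 38.4% as many as Mrps36. Values of these 3 genes are therefore uncertain. The kit does not mark strand, and exons of Mrps25, Mrps34 and Mrpl19 overlap those of neighbouring coding genes over 69.8%, 63.4% and 36.0% of their length in GENCODE. Mrpl43 (33.4%), Mrpl24 (26.3%), Mrps24 (15.4%) and the head-to-head pair Mrpl46 (12.2%) and Mrps11 (8.0%) overlap less.

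In the authors' deposited tables of 1 day each, 0, 2, 0, 2 and 0 members had an adjusted p under 0.05 at days 0, 2, 4, 6 and 8. Of all genes with an adjusted p there, 266 of 16346, 742 of 15730, 407 of 16097, 999 of 16210 and 591 of 16657 were. The members' counts were therefore not above the background. The members with a log2 fold change below 0 in the authors' deposited tables numbered 19, 62, 72, 71 and 70 at these days. Mrpl41 had the smallest adjusted p of the members in the authors' deposited table of day 2 (0.000858) and in that of day 6 (0.00147).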

How the data were processed

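RNA was sequenced from 20 libraries of 3T3-L1 cells. Per the submitters' processing notes, reads were handled with TopHat2 2.0.13, Bowtie2 2.2.3.0, SAMtools and DESeq2 1.10.1 on mm9; the read counter and annotation are not given in the sources used here. Per the file headers, the authors deposited 1 table per day with variance-stabilised log2 values per library, a mean normalised read signal per gene, log2 fold changes, a test score and p-values. Each day was transformed separately, so that a gene with 0 reads has a value of 5.00 to 6.94 and differences of low genes are compressed. The transformation was inverted to whole reads: 100% of values up to 100 reads came within 0.02 of a whole number. Totals were 20153360 to 33973608 reads per library.

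A gene was tested if its normalised counts averaged 10 or more in 1 or more tables. Knockdown and scrambled cells were compared with limma 3.58.1 (R 4.3.3, statmod 1.5.0, trend, robust) on the deposited log2 values, with day as a factor for the average and a fit of 10 groups for single days. Days were compared with limma voom on recovered reads with TMM scaling, since tables of different days are not on 1 scale. The fits were also run on simulated data with independent libraries. That simulation held no deviation shared by same-numbered libraries and no outlying late libraries, and cannot show how the fits behave with them. Same-numbered libraries of both arms deviated together (r of 0.783, 0.702, 0.551, 0.537 and 0.468 at days 0, 2, 4, 6 and 8 across genes). Values with the replicate number as a block are therefore given for the main counts and for named genes whose average call they changed. Within an arm, the difference between libraries 1 and 2 also recurred between days. Its r was 0.174 to 0.703 in knockdown cells and 0.0327 to 0.848 in scrambled cells. The average test, with or without the block, does not model this, so its p-values may be too small. Alternatives were other filters, scalings and fits, each library left out, and the late libraries numbered 2 left out; counts of separated groups on size-factor scaled values were added after seeing the data. Named by rule were up to 8 members per direction with the smallest adjusted p for the average, up to 5 per direction for the day 0 to day 8 change in scrambled cells (by size) and for its difference between arms (by adjusted p), up to 4 called at single days, the 5 highest and 5 lowest by level, the S18 relatives with Mrps30 and Mrps36, and up to 4 per companion list. Mrpl12, Mrpl38 at day 0, Dap3, Gadd45gip1, Mrp63 and Yy1 were chosen after their values were seen. Members and lists were chosen with earlier results of these data known. The values of 1 gene that the rule for named genes takes are not reported here.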

Additional observations from a re-analysis of the deposited data

Results flagged for a closer look

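Mrpl15 and Mrpl44 were found by a scan of the 19 members with both knockdown libraries above both scrambled libraries at day 0. The share of all genes with the same pattern over the days is not given. For each of these 2 genes, both knockdown libraries were above both scrambled libraries in RPM at day 0 and below both at days 2, 4, 6 and 8. Mrpl15, a large-subunit protein with a bacterial counterpart, had 29.4 and 29.4 RPM in knockdown cells and 28.9 and 26.02 RPM in scrambled cells at day 0, and 28.9 and 32.2 RPM in knockdown cells and 33.9 and 65.6 RPM in scrambled cells at day 8. Its log2 difference was 0.066 at day 0 and -0.29, -0.63, -0.80 and -0.645 at days 2, 4, 6 and 8. Mrpl44, listed at the exit tunnel, had 16.6 and 15.8 RPM in knockdown cells and 14.2 and 14.4 RPM in scrambled cells at day 0, and 15.9 and 18.9 RPM in knockdown cells and 19.1 and 34.9 RPM in scrambled cells at day 8. Its log2 difference was 0.12 at day 0 and -0.17, -0.55, -0.61 and -0.568 at days 2, 4, 6 and 8. The difference between the arms in the change between day 0 and day 8 was tested for both and did not pass by limma voom (-0.76, SE 0.580, adjusted p = 0.846 for Mrpl15, and -0.76, SE 0.487, adjusted p = 0.846 for Mrpl44). Groups of 2 libraries were too small to look for single libraries far from the rest of their group.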

How the results depend on the processing

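Of the 75 members, 22 were lower on average; this count was 12 without the late scrambled libraries numbered 2, 11 without those of both arms and 37 with the replicate block. Without the late scrambled libraries numbered 2 the count was 1 at day 2 and 0 at day 8, the median difference was -0.122 at day 6 and 0.0101 at day 8, and over time the counts were 38 (scrambled day 0 to 2), 1 (scrambled day 2 to 4), 0 (scrambled day 0 to 8, median 0.149), 10 (knockdown day 0 to 2) and 2 (knockdown day 2 to 4). With the late libraries numbered 2 left out in both arms, day 8 gave 0 and a median of -0.0379. With the replicate block the counts were 3 at day 6 and 5 at day 8, and over time 30 (scrambled day 0 to 2), 2 (scrambled day 2 to 4), 28 (scrambled day 0 to 8), 6 (knockdown day 0 to 2), 1 (knockdown day 2 to 4) and 1 (knockdown day 0 to 8). The fit of a day's table alone gave 1 at day 2, 0 at day 6 and 0 at day 8, and voom 0 at day 8. Without the filter on low counts the time counts were 7 (scrambled day 0 to 2), 1 (scrambled day 0 to 8) and 1 (knockdown day 0 to 2). On size-factor scaled values, 5 members were separated below at day 0, against 3. Leaving out each library in turn gave 14 to 31 on average (median -0.255 to -0.149), 0 at days 0, 2 and 4 (medians -0.0198 to 0.115, -0.181 to -0.081 and -0.436 to -0.089), 0 to 7 at day 6 (-0.552 to -0.122) and 0 to 36 at day 8 (-0.695 to 0.0101). Over time it gave 0 to 26 (scrambled day 0 to 2, median 0.405 to 0.611), 0 to 49 (scrambled day 0 to 8, median 0.172 to 0.920), 0 to 5 (knockdown day 0 to 2, median 0.109 to 0.365) and 0 for the other steps and the difference between arms. The cause of these shifts was not tested. For single days and for steps over time, the share of all genes called in the same fits is not given. Those counts therefore show dependence on the fit and are not a result about the members. Over 63 results on named genes, 1636 alternatives kept the direction and the side of the threshold, 133 lost the call, 10 gained it and 15 changed direction, none of them with a call. Without the late scrambled libraries numbered 2 the average turned positive for Mrp63 (0.0319), Mrpl30 (0.00816), Mrpl47 (0.0635), Mrps18b (0.083), Mrps30 (0.018) and Mrps36 (0.0961), and without those of both arms for Mrpl47 (0.0232), Mrps18b (0.0339) and Mrps36 (0.00873). With 1 library left out, the difference between arms in the day 0 to day 8 change ranged from -0.0951 to 0.26 (Mrpl23), -0.255 to 0.347 (Mrps16) and -0.179 to 0.436 (Mrps6). The replicate block also gave a call for Gfm2, Mrpl1 (adjusted p = 0.0435 and 0.0470 by limma) and Yy1. With 2 libraries per group, single days have little precision, and no call at a single day held in every alternative.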
